A study of Oryza sativa with 20 samples.

Results

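MicroRNAs (miRNAs) are short RNAs that direct silencing complexes to transcripts of matching sequence. In plants they mostly pair with their targets over nearly their whole length, which leads to cleavage of the transcript or blocks its translation, and many of them act on regulators of leaf growth and ageing. Here the miRNA tags whose level declined between the first and the last sampled stage of rice leaf development are described, in the lamina joint and in the blade. The lamina joint is the hinge where the sheath meets the blade, and how far it bends determines how upright the leaf stands.

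The falling tags were chosen by their level, in CPM, the count of a tag scaled to a common library size, on library sizes scaled by edgeR's trimmed mean of M-values (TMM). A tag was taken if its mean over all 20 libraries was at least 10 CPM and if (mean CPM at S5 + 5)/(mean CPM at S1 + 5) was 0.5 or less in both tissues. This gave 54 tags, of 685 listed, 484 with any count and 287 with a mean of at least 10 CPM, which is 18.8% of the 287. The files list tags by number and do not pair them with miRNA names or sequences, so no sequence is shown, each tag is called by its number, and the roles of single tags are not described. At most 2 tags per direction are named in each comparison.

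Small RNA was sequenced from Oryza sativa seedlings grown in water, from the first complete leaf, cut into lamina joint and blade, at 5 stages named S1 to S5; the labels give no treatment or genotype. Seedlings were sampled 5 times, on days 4, 5, 6, 7 and 9 counted from germination, and no label ties a day to a stage. There were 2 libraries for every stage of either tissue, 10 groups in all. Both tissues hold several cell types, so fewer cells of a type and less RNA per cell cannot be told apart. Library totals lay between 194799 and 1169330 counts. The lamina joint S1 libraries differed most in the share of the most abundant tag of the series, with 12.3% and 28.8%. The labels do not state that the libraries of a group came from separate plants; the p-values rest on library-to-library spread alone, and this may be technical.

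The falling tags covered a wide range of abundance. Ranked by mean level among all tags with counts, they lay between rank 16 and rank 285, with a median rank of 128, and 6 were among the 50 most abundant. Their mean levels over all libraries ran from 11.3 to 10537 CPM, with a median of 151 CPM, against 112 CPM for the 287 tags that reached 10 CPM. Of the 54, 16 were under 50 CPM. No falling tag had the same counts as another tag in every library, but near-identical miRNAs of a family can still share or divide reads.

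The share of library counts held by the 54 tags became small by S5. In the lamina joint it was 11.7% and 7.39% in the S1 libraries, 9.80% and 7.14% at S2, 4.34% and 4.32% at S3, 1.75% and 1.74% at S4, and 0.702% and 0.824% at S5. In the blade it was 6.95% and 7.18% at S1, 6.77% and 5.68% at S2, 3.81% and 3.62% at S3, 2.01% and 1.48% at S4, and 0.688% and 0.710% at S5. No S4 library overlapped an S2 or S3 library in this share, in either tissue, and the S1 and S2 libraries of the lamina joint overlapped. The widest exact 95% binomial interval was 7.29% to 7.50%, for the second lamina joint S1 library, and covers counting error only. The 3 most abundant falling tags made up between 45.7% and 69.5% of these counts, and the other 51 tags followed the same course, with 2.27% ± 0.125 (SD, n = 2) in lamina joint S3, 0.887% ± 0.0340 in lamina joint S4, 1.54% ± 0.161 in blade S3 and 0.610% ± 0.00646 in blade S4. All these shares are of unscaled counts. The most abundant tag of the series held 38.3% to 41.1% of the counts in the S5 libraries and 12.3% to 28.8% in the others. On the TMM scale the summed CPM of the 54 tags fell less, from a mean of 82256 in lamina joint S1 to 10568 in S5. In the blade the mean sums were 64805 at S1 and 11247 at S5.

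**Figure D1:**
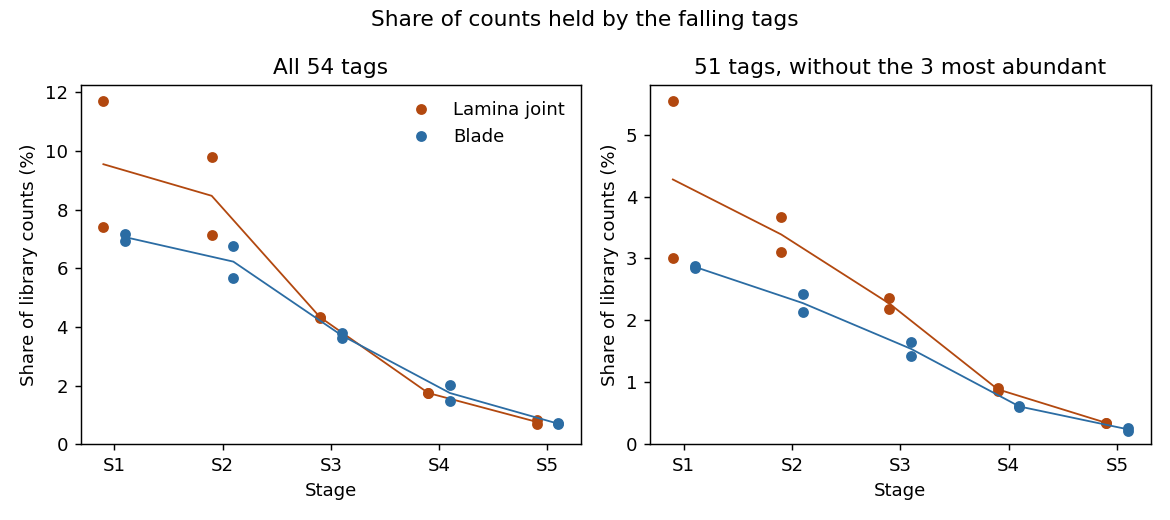
Share of all counts of a library, in percent, held by the 54 falling tags (left) and by the 51 without the 3 most abundant (right), by stage. Points are single libraries, lines join the means of 2 libraries, and both tissues end under 1% at S5; S1 and S5 were used to choose the tags.

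The size of the fall between S1 and S5 chose the tags and is given as a description. The ratio of S5 to S1 ran from 0.0111 to 0.490 in the lamina joint, with a median of 0.154, and from 0.0134 to 0.491 in the blade, with a median of 0.147. A ratio of 0.25 or less in both tissues was found for 31 tags and one of 0.1 or less in both for 14. The lower ratio was that of the lamina joint for 26 of the 54 tags. Just inside the limit, tag_005 had ratios of 0.145 in the lamina joint and 0.491 in the blade, and tag_604 had 0.490 and 0.401. Just outside, tag_014 had 0.363 and 0.506, and tag_029 had 0.518 and 0.475.

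Ranked by the larger of the tissues' ratios, tag_257 and tag_189 had the lowest. These ratios rest on few counts at S5. The lamina joint S5 libraries held 1 and 0 counts of tag_257, and 1 and 1 of tag_189. The blade S5 libraries held 0 and 9 counts of tag_257, and 2 and 7 of tag_189. In the lamina joint tag_257 had 701 and 755 CPM at S1, 393 and 262 at S2, 306 and 342 at S3, 6.82 and 7.62 at S4, and 6.30 and 0 at S5. In the blade it had 720 and 941 CPM at S1, 442 and 260 at S2, 185 and 157 at S3, 8.48 and 7.81 at S4, and 0 and 12.4 at S5. In both tissues all S4 and S5 libraries were below all S1, S2 and S3 libraries. Tag_189 had its highest mean in the lamina joint at S2, with 976 and 506 CPM at S1, 846 and 1805 at S2, 139 and 195 at S3, 15.9 and 2.54 at S4, and 6.30 and 3.22 at S5. Its blade levels were 546 and 390 CPM at S1, 243 and 112 at S2, 32.7 and 24.0 at S3, 1.21 and 0 at S4, and 3.56 and 9.63 at S5. Each blade stage of tag_189 from S1 to S4 lay below the one before it without overlap of libraries.

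The 2 most abundant falling tags took different courses in the tissues. Tag_033 had 21269 and 20310 CPM in lamina joint S1 and 5422 and 3676 CPM at S2, and then stayed near that level, with 3421 and 3808 at S3, 5289 and 3219 at S4, and 2802 and 5717 at S5. In the blade it had 17209 and 25065 CPM at S1, 23862 and 17104 at S2, 11934 and 11603 at S3, 11356 and 5927 at S4, and 6196 and 5545 at S5. The lamina joint levels of tag_033 after S1 thus overlapped from stage to stage, while blade S5 lay below blade S1, S2 and S3 in all libraries and overlapped blade S4. Tag_050 was highest in lamina joint S2, with 14364 and 10077 CPM at S1, 21999 and 19722 at S2, 6479 and 5786 at S3, 2198 and 1602 at S4, and 718 and 544 at S5. Its blade levels were 9303 and 8167 CPM at S1, 5749 and 5577 at S2, 3744 and 6711 at S3, 2204 and 1421 at S4, and 507 and 641 at S5. Only blade S2 and S3 of tag_050 overlapped among neighbouring stages.

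**Figure D2:**
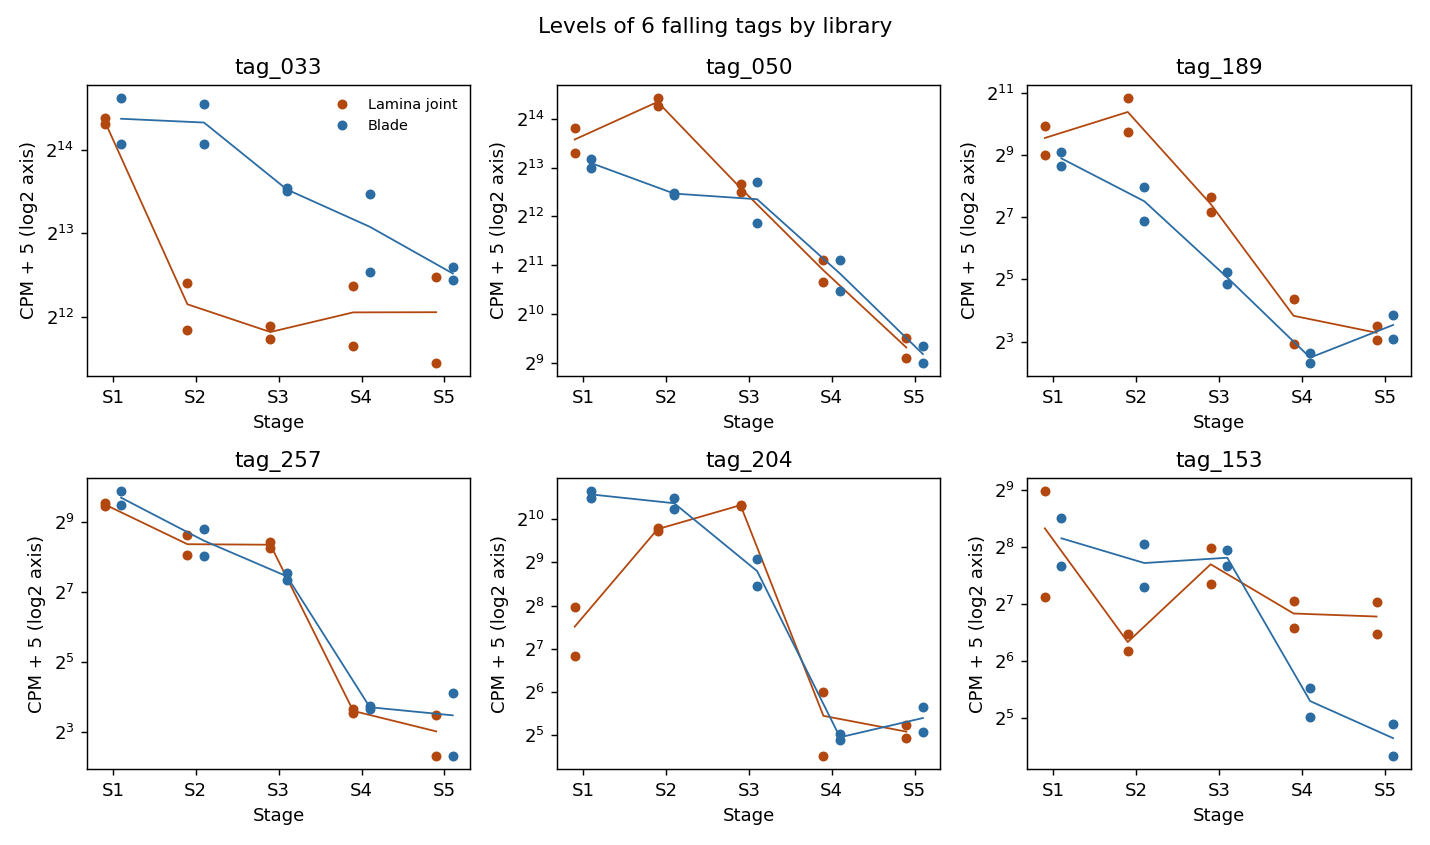
CPM + 5 on a log2 axis for 6 of the falling tags at each stage. Points are single libraries of the lamina joint (orange) and the blade (blue), and lines join the means of 2 libraries; tag_033 was lower at S2 than at S1 in the lamina joint, tag_189 and tag_257 were low from S4 on in both tissues, and tag_153 stayed higher in the lamina joint at S4 and S5.

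The course between the end stages differed between tags and tissues. The rule required a higher mean at S1 than at S5 in both tissues. This favours peaks at S1, falls from S1 and agreement between the tissues. The counts of this paragraph are therefore a description, and they are not given for all tested tags. In the lamina joint the highest mean lay at S1 for 30 tags, at S2 for 15, at S3 for 8 and at S4 for 1. In the blade it lay at S1 for 47, at S2 for 5 and at S3 for 2. The median ratio to S1, with 5 CPM added to both means, was 0.850 at S2, 0.618 at S3, 0.236 at S4 and 0.154 at S5 in the lamina joint, and 0.632, 0.548, 0.201 and 0.147 at the same stages in the blade. A ratio to S1 of 0.5 or less was reached by 16 tags at S2, 22 at S3 and 46 at S4 in the lamina joint, and by 14, 22 and 48 in the blade. A fall at every step from S1 to S5 was seen for 14 tags in the lamina joint and 22 in the blade. The largest single fall on the log2(CPM + 5) scale was the step from S3 to S4 for 23 lamina joint and 32 blade tags, of which 20 were shared, and the step from S1 to S2 for 15 and 10, of which 8 were shared.

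**Figure D3:**
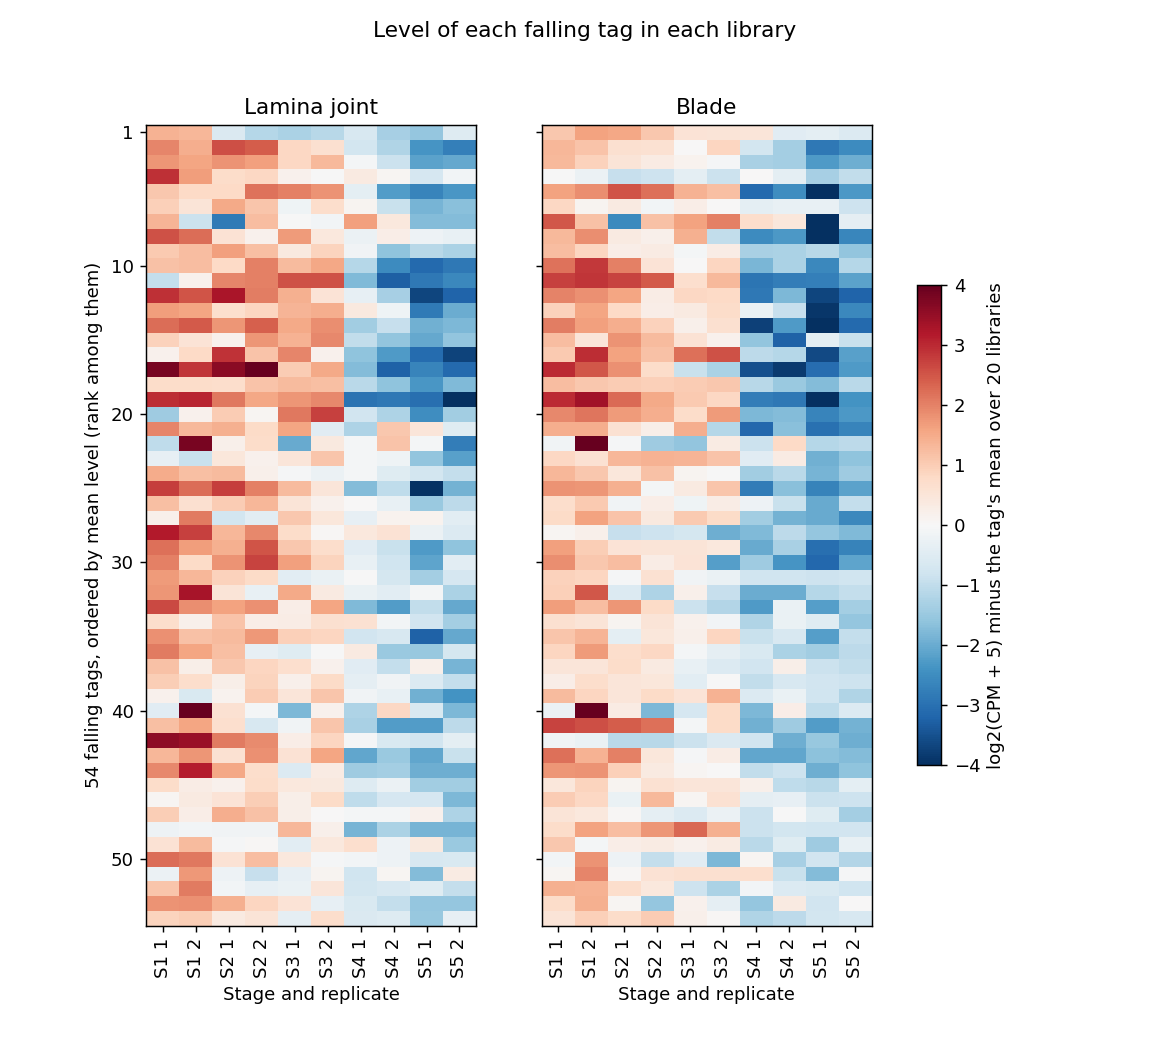
Level of the 54 falling tags (rows, ordered by mean level) in each library (columns, by stage and replicate), as log2(CPM + 5) minus the tag's mean over the 20 libraries. In both tissues most tags change from above to below their mean between S3 and S4, and a few rows are high in the second S1 library of both tissues.

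A pair of falling tags, singled out with their values in view, had a high S1 level in only 1 library of each tissue. Tag_157 had 33.9 CPM in the first and 1073 CPM in the second lamina joint S1 library, and 66.3 and 2231 CPM in the blade S1 libraries. At the later stages its levels lay between 6.44 and 165 CPM in the lamina joint and between 21.2 and 131 CPM in the blade. Tag_368 had 7.70 and 338 CPM in lamina joint S1 and 9.67 and 444 CPM in blade S1, and no more than 25.4 CPM in any later library. Both tags were thus high only in the second S1 library of each tissue, and the replicate difference at S1 was correlated between the tissues over the 299 tested tags (Pearson 0.559, across tags, which are not replicates). Of the 54 tags, 41 stayed in the set when any 1 of the 8 libraries of S1 and S5 was left out, and 13 left it in at least 1 of these cases. Tag_157 left the set without the second lamina joint S1 library, as did tag_153, and tag_368 did so without that library and also without the second blade S1 library.

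Whether the tags also declined in libraries that the S5 to S1 ratio did not use was tested between S4 and S2. All 54 tags were among the 299 that passed the filter on low counts. Of the 54, 53 kept a mean of at least 10 CPM without the S2 libraries and 50 without the S1 libraries. The tag that fell short without S2 is counted below among those called lower in the blade, and its fall there is a description. In the lamina joint 32 of the 54 tags fell between S2 and S4 and 0 rose (edgeR's quasi-likelihood test, Benjamini-Hochberg adjusted over the 299 tags, threshold 0.05), where 15.4% of all tested tags fell and 25.1% rose. The fitted changes (log2) had a median of -1.65, against 0.10 for all tested tags. Of the 54 fitted changes 49 were negative, against 46.8% of those of all tested tags. Both S4 libraries lay below both S2 libraries for 42 of the 54 tags, where 34.1% of all tested tags did so, and above them for 1, where 38.1% did so. At an unadjusted p under 0.05, 35 tags were lower and 0 higher, against 19.7% and 29.1% of all tested tags. Without 1 library at a time the median of the 54 ran from -2.01 to -1.65 and that of all tested tags from -0.12 to 0.14. Fewer tags were called lower in some of these fits, among the 54 and among all tested tags. Scaling by total counts called 37 of the 54 lower in place of 32. Of all tags it called 74 lower and 58 higher, where TMM called 46 lower and 75 higher.

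In the blade 31 of the 54 tags fell between S2 and S4 and 0 rose, where 13.4% of all tested tags fell and 8.36% rose. The fitted changes (log2) had a median of -1.63, against 0.07 for all tested tags. Of the 54 fitted changes 50 were negative, against 48.2% of those of all tested tags. Both S4 libraries lay below both S2 libraries for 44 tags, where 32.1% of all tested tags did so, and above them for 1, where 31.1% did so. At an unadjusted p under 0.05, 34 were lower and 0 higher, against 18.4% and 14% of all tested tags. Without 1 library at a time the median of the 54 ran from -1.90 to -1.45 and that of all tested tags from -0.05 to 0.23. Here too fewer tags were called lower in some of these fits, among the 54 and among all tested tags. Scaling by total counts called 34 of the 54 lower in place of 31. Of all tags it called 55 lower and 16 higher, where TMM called 40 lower and 25 higher. Total counts moved the median of all tags to -0.33 in both tissues, and the medians of the 54 tags to -2.18 in the lamina joint and -2.04 in the blade.

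The named tags of this comparison were those with the largest fitted falls. In the lamina joint tag_189 had 8 counts over the S4 libraries and 1858 over the S2 libraries, and its fitted change was -7.10 ± 0.81 (log2, SE; edgeR adjusted p = 4.52e-05). Its ratio of S4 to S2, from counts over effective library sizes, was 0.00675 (95% counting interval 0.00291 to 0.0133). Tag_257 had 6 counts at S4 and 411 at S2 and fell by 5.46 ± 0.82 (log2, SE; edgeR adjusted p = 0.000175), and its ratio was 0.0229 (95% counting interval 0.00835 to 0.0502). In the blade tag_224 had 0 counts at S4 and 45 at S2 (edgeR adjusted p = 0.000895), and the 95% counting interval of its ratio ran from 0 to 0.0470. Its S2 libraries were far apart in the blade, at 80.2 and 24.0 CPM. For tag_189 the blade counts were 1 at S4 and 146 at S2 (edgeR adjusted p = 0.000145). The counting interval of its blade ratio, 0.00377, ran from 9.48e-05 to 0.0213. The S4 and S2 libraries did not overlap in any of these 4 cases.

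Of the tags that fell between S2 and S4, 24 did so in both tissues, which was 75% of the lamina joint list and 77.4% of the blade list. Of all tested tags, 8.7% fell in both tissues, 26 in number with the 24 among them. The tissues share no library in this comparison, but the rule chose only tags that fell from S1 to S5 in both tissues. The overlap, and the correlation given below, are therefore not independent of the choice of tags. How much of the agreement between the tissues comes from this choice was not tested. Among the 24 the median fitted changes were -3.14 in the lamina joint and -3.04 in the blade on the log2 scale. Across the 54 tags the fitted changes of the tissues correlated with Pearson's r of 0.714 and Spearman's rho of 0.603, as a description. The points share each tag's abundance and the fit. Tags called in the lamina joint and not in the blade numbered 8, tags called in the blade and not in the lamina joint 7, and 15 were called in neither tissue. The 15 had a median level of 47.8 CPM over all libraries, against 283 CPM for the 24. In 9 of the 15 the largest fall lay between S1 and S2 in the lamina joint, and in 6 it lay there in the blade. That step includes S1, which was used to choose the tags.

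**Figure D4:**
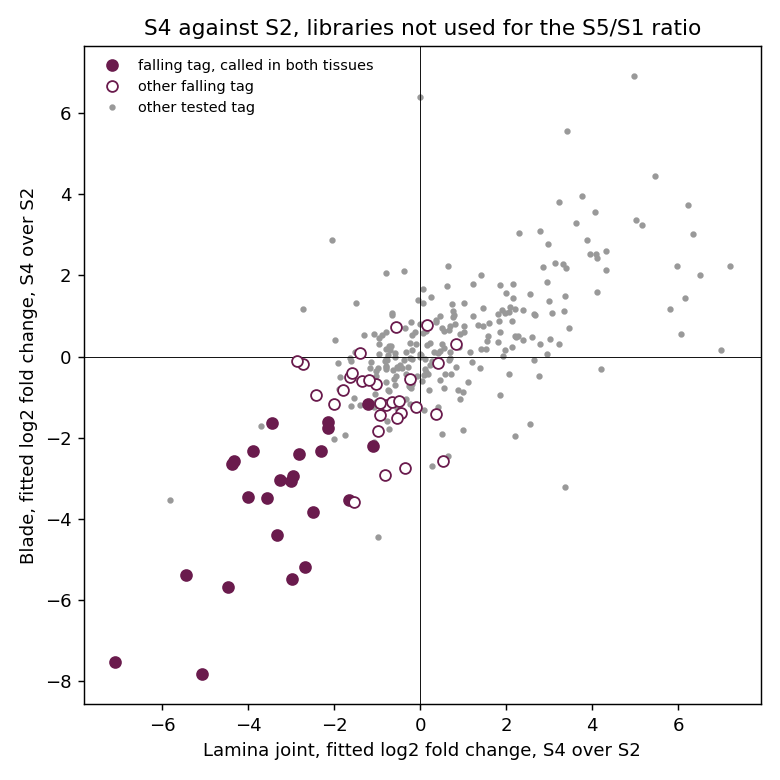
Fitted log2 fold change of S4 over S2 in the lamina joint (x axis) and in the blade (y axis) for the 299 tested tags. Filled points are the 24 falling tags called in both tissues, open points the other falling tags and grey points all other tags. Of the 54 falling tags, 47 are negative in both tissues, against 35.1% of all tested tags. The falling tags were chosen for a fall from S1 to S5 in both tissues.

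The fall was then placed within the middle stages. Between S2 and S3, 2 of the 54 tags fell in the lamina joint, where 0.669% of all tested tags fell, and 0 rose, where 1.34% did, with a median fitted change of -0.40 (log2) against 0.07 for all tested tags. They were tag_189, with a fitted change of -2.99 ± 0.64 (log2, SE; edgeR adjusted p = 0.0192), and tag_050, with -1.77 ± 0.35 (edgeR adjusted p = 0.0174). This count was 0 without any 1 of the lamina joint S2 or S3 libraries, 1 without the first blade S3 library and 5 with DESeq2. In the blade 0 of the 54 tags fell between S2 and S3 in edgeR's test, where 0% of all tested tags fell, and the median fitted change was -0.28 against 0.20 for all tested tags. The median of the 54 was -0.14 without the first blade S2 library, and with DESeq2 size factors the medians were -0.44 for the 54 and 0.01 for all tags. At an unadjusted p under 0.05, 6 tags were lower and 0 higher in the blade, against 2.68% and 6.69% of all tested tags, and DESeq2 gave 3 lower.

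Between S3 and S4, 21 of the 54 tags fell in the lamina joint, where 8.03% of all tested tags fell, and 26 in the blade, where 10.4% fell. The median fitted changes were -1.37 in the lamina joint and -1.41 in the blade (log2), against 0.15 and -0.15 for all tested tags. The blade median of all tags turned to 0.14 with DESeq2 size factors and to 0.19 without the first blade S3 library, where that of the 54 was -1.11 and -1.06. The lamina joint median of all tags turned to -0.06 without the first lamina joint S4 library and to -0.08 with total counts. At this step 0 of the 54 rose in either tissue, where 10.4% of all tested tags rose in the lamina joint and 3.01% in the blade. At an unadjusted p under 0.05 30 tags were lower in the lamina joint and 29 in the blade, against 12.4% and 16.4% of all tested tags, and 0 higher in either, against 18.4% and 8.03%. Without 1 library at a time the median of the 54 ran from -1.70 to -1.37 in the lamina joint and from -1.71 to -1.06 in the blade. That of all tested tags ran from -0.06 to 0.18 and from -0.22 to 0.19. In the blade fewer of the 54 tags were called lower in every one of these fits, and in the lamina joint in some of them. Among all tested tags fewer were called lower in some of these fits in either tissue. Whether the step from S3 to S4 was larger than that from S2 to S3 was not tested.

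Tag_257 and tag_204 had the largest called falls between S3 and S4 in the lamina joint. Tag_257, with the levels given above, changed by -5.44 ± 0.82 (log2, SE; edgeR adjusted p = 0.00061) at this step and by -0.01 ± 0.62 at the step before. Tag_204 was highest at S3 in the lamina joint, with 109 and 245 CPM at S1, 850 and 888 at S2, 1271 and 1289 at S3, 59.1 and 17.8 CPM at S4 and 25.2 and 32.2 at S5. Its change from S3 to S4 was -5.04 ± 0.57 (log2, SE; edgeR adjusted p = 9.44e-05). In the blade tag_204 had 1446 and 1599 CPM at S1, 1440 and 1202 at S2, 346 and 535 at S3, 24.2 and 27.3 at S4, and 28.5 and 45.4 at S5. Blade S3 of tag_204 thus lay below blade S2, while lamina joint S3 lay above lamina joint S2, without overlap in either tissue. Its fitted S3 minus S2 changes of 0.56 ± 0.47 in the lamina joint and -1.58 ± 0.48 in the blade missed the threshold (edgeR adjusted p = 0.548 and 0.267). Among tags that averaged at least 10 CPM over the blade S3 and S4 libraries, the largest called falls were those of tag_189, with 1 count at S4 against 32 at S3 (edgeR adjusted p = 0.00575, or 0.0595 without the second blade S4 library), and tag_257, with -4.34 ± 0.77 (log2, SE; edgeR adjusted p = 0.00223). Below that limit, 1 tag with 0 counts at S4 and 21 at S3 had a larger fitted fall.

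The tissues were compared over S2 to S4. In the lamina joint 12 of the 54 tags were higher than in the blade and 2 were lower, where 7.69% of all tested tags were higher and 9.7% lower. The median fitted difference, lamina joint minus blade, was 0.51 on the log2 scale, against 0.12 for all tested tags. Of the 54 differences 44 were positive, against 55.2% of those of all tested tags. Of the 12 tags, 11 had the higher mean in the lamina joint at all 5 stages, and 8 were among the 24 that fell between S2 and S4 in both tissues. By means, 33, 36, 38, 38 and 31 of the 54 tags were higher in the lamina joint at S1, S2, S3, S4 and S5, where 40.8%, 52.2%, 42.8%, 58.9% and 38.8% of all tested tags were. Without 1 library at a time the median fitted difference of the 54 ran from 0.39 to 0.58 and that of all tested tags from -0.0005 to 0.17. Fewer tags were called in either direction in some of these fits, among the 54 and among all tested tags.

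Tag_189 and tag_219 had the largest differences towards the lamina joint. Of the 54 tags, 53 averaged at least 10 CPM in each tissue alone, and 11 of these 53 were called higher in the lamina joint and 2 lower. Tag_189 had 2083 counts over lamina joint S2 to S4 and 179 over the same blade stages, and differed by 2.92 ± 0.47 (log2, SE; edgeR adjusted p = 0.000588, or 0.055 without the first lamina joint S4 library). Tag_219 had 76.4 and 67.6 CPM in lamina joint S2, against 4.11 and 3.99 CPM in blade S2. It averaged 24.2 ± 8.27 CPM in lamina joint S3, against 6.89 ± 1.58 CPM in blade S3 (SD, n = 2 each), and had 13.6 and 7.62 CPM in lamina joint S4, against 6.06 and 0 CPM in blade S4. Tag_219 was the exception, with a mean of 66.1 CPM over all lamina joint libraries and 5.34 CPM over all blade libraries. It met the 10 CPM limit through the lamina joint alone, so its difference, 134 counts in lamina joint S2 to S4 against 16 in the same blade stages, is a description. The tags lower in the lamina joint were tag_247 and tag_033. Tag_247 had 11.5 and 11.5 CPM in lamina joint S2, against 37.0 and 55.9 CPM in blade S2, and 40.8 and 15.7 CPM in lamina joint S3, against 82.7 and 43.2 CPM in blade S3. At S4 it had 0 and 2.54 CPM in the lamina joint, against 4.85 and 5.85 CPM in the blade. The tissues differed by -1.69 ± 0.46 for tag_247 (log2, SE; edgeR adjusted p = 0.0218), which missed the threshold without the first lamina joint S4, the second blade S2 or either blade S4 library (edgeR adjusted p up to 0.0731). For tag_033 the tissues differed by -1.63 ± 0.24 (log2, SE; edgeR adjusted p = 0.000322), with the levels given above.

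**Figure D5:**
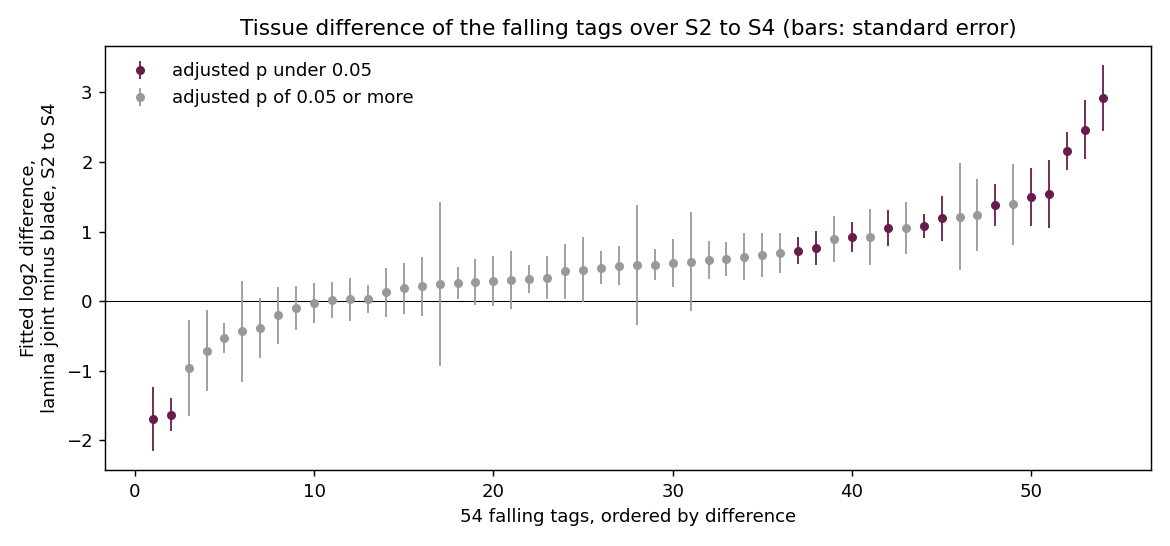
Fitted log2 difference, lamina joint minus blade averaged over S2 to S4, for each of the 54 falling tags in ascending order, with its standard error. Coloured points passed the threshold, 12 above 0 and 2 below. Of the 54 differences 44 are positive, against 55.2% of those of all tested tags.

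Whether the change from S2 to S4 differed between the tissues was tested as the difference itself. In edgeR's test 0 of the 54 tags passed the threshold, where 1.34% of all tested tags had the higher change in the lamina joint and 0% the lower, and the median fitted difference was 0.03 (log2) against 0.31 for all tested tags. Without 1 library at a time the median of the 54 ran from -0.32 to 0.28 and that of all tags from -0.05 to 0.38, and with DESeq2 size factors they were -0.17 and 0.08, so neither has a stable sign. At an unadjusted p under 0.05, 4 tags had the higher and 3 the lower change in the lamina joint, against 15.1% and 3.34% of all tested tags. Towards a higher change in the lamina joint the smallest p were those of tag_153, with 3.09 ± 0.81 (log2, SE; edgeR adjusted p = 0.0653), and tag_242, with 2.50 ± 0.86 (edgeR adjusted p = 0.122). Towards a lower change they were those of tag_050, with -1.81 ± 0.48 (edgeR adjusted p = 0.0654), and tag_005, with -1.28 ± 0.53 (edgeR adjusted p = 0.197). Tag_242 had 675 and 185 CPM in lamina joint S4, against 1549 and 4007 CPM in lamina joint S2, and 98.1 and 154 CPM in blade S4, against 5076 and 4112 CPM in blade S2. Tag_153 had 90.9 and 127 CPM in lamina joint S4, against 66.8 and 84.2 CPM in lamina joint S2, and 41.2 and 27.3 CPM in blade S4, against 259 and 152 CPM in blade S2. The count of 0 was 3 with DESeq2, where that of all tags was 32 in place of 4. It was 2 when the first or the second lamina joint S1 library was left out, where that of all tags was 17 or 11. The 2 were tag_153 and tag_050, for which DESeq2 gave adjusted p = 0.00871 and 0.00886. With 2 libraries a group, tags that changed to unlike degrees can miss the threshold, so this does not show that the tissues changed alike.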

How the data were processed

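The authors deposited whole-number counts per miRNA tag for each of 20 libraries, not normalised. Per the submitters' processing notes, CASAVA and build IRGSP-1.0 were used. No source used here names an aligner, an annotation or a counting tool. Groups and replicate numbers come from the sample titles. TMM factors were computed on the 484 tags with any count (edgeR 4.0.16, R 4.3.3) and used for levels and tests. filterByExpr (minimum count 10, minimum total 15) left 299 tags, with at least 99.9% of each library's counts. One mean per group was fitted to all 20 libraries (10 residual degrees of freedom) with glmQLFit and glmQLFTest, two-sided, and each standard error is the fold change over the square root of F. The rule on S1 and S5 chose the tags, so tests used contrasts of S2, S3 and S4. The scripts were first tested on simulated data. In each contrast the named tags are up to 2 per direction with the largest fitted change among those past the threshold with at least 10 CPM over the compared libraries, or the smallest p for the difference between tissues. The most abundant tags, those with the lowest ratios and those next to the limit are also named. The tags and tests were chosen with earlier results of these data known. Alternatives used DESeq2 1.42.0 and limma 3.58.1; figures used matplotlib 3.10.9 in Python 3.11.15.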

Additional observations from a re-analysis of the deposited data

Results flagged for a closer look

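For 2 of the named falling tags every library moved one way in one tissue and the opposite way in the other between S2 and S4, as described for tag_153 above. The difference between the tissues in this change was 3.09 (log2) for tag_153 and missed the threshold (edgeR adjusted p = 0.0653). For tag_005 it was -1.28 (edgeR adjusted p = 0.197), with 3720 and 3084 CPM in lamina joint S4, against 4857 and 5176 CPM in lamina joint S2, and 2958 and 2213 CPM in blade S4, against 1523 and 1625 CPM in blade S2. These were the only 2 of the 54 tags with such opposite moves. The share of all tested tags with such moves was not counted, so whether 2 is few or many is not known.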

How the results depend on the processing

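The number of falling tags was 54 by the rule, 92 with total counts and 31 with a ratio of 0.25 or less, and between 52 and 77 with DESeq2 size factors, total counts without the most abundant tag, 1 CPM added in the ratio or a mean of at least 5 CPM; a mean of at least 50 CPM left 38. It ran from 51 to 56 without 1 library of S1 or S5. The 10 settings that kept the 54 tags included other scalings, filters and tools and the S2 to S4 libraries alone. In these, 29 to 39 of the 54 fell between S2 and S4 in the lamina joint and 29 to 34 in the blade. Of the 54, 0 rose in either tissue. Of all tags, 43 to 77 fell in the lamina joint and 37 to 55 in the blade. From S2 to S3 the lamina joint count of 2 became 5 with DESeq2, and the blade count of 0 became 3 with no filter, 3 with DESeq2 and 1 with the S2 to S4 libraries alone. The count of tags whose S2 to S4 change differed between tissues, 0, became 1 with DESeq2 size factors, 1 with total counts without the most abundant tag, 3 with no filter, 3 with DESeq2 and 2 with the S2 to S4 libraries alone. With a ratio of 0.25 or less the tags lower in the lamina joint over S2 to S4 became 0. The cause of these shifts was not tested.

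Leaving out 1 library at a time gave, for tags that fell between S2 and S4, 21 to 33 in the lamina joint and 16 to 32 in the blade. From S2 to S3 it gave 0 to 2 in the lamina joint and 0 to 0 in the blade, and from S3 to S4 9 to 23 and 10 to 25. Tags higher in the lamina joint over S2 to S4 numbered 6 to 12, tags lower 1 to 2, and tags whose change differed between tissues 0 to 2. Choosing the tags without 1 of the 8 libraries of S1 and S5, an alternative added after seeing the data like TMM on the filtered tags, gave 30 to 32 in both tissues for the fall from S2 to S4. Over the refits, results for named tags lost the threshold in 15 cases, gained it in 13 and reversed in 0. Settings that changed only the choice of tags reused the main fit, so they could not move these results. The titles share replicate numbers, and the labels do not say what these mark. The replicate differences of the 45 pairs of groups, most of them of unlike stages, had correlations between -0.27 and 0.56, with a median of -0.0024. The correlation was over 0.1 in 13 pairs and under -0.1 in 13. The highest was that of lamina joint S1 with blade S1. These pooled values do not test a pairing of the tissues within a stage, and the main fit used none. With a replicate block 32 tags fell between S2 and S4 in the lamina joint and 30 in the blade. Depth limits the low levels: at S4, 14 of the 54 tags had 10 counts or fewer over the lamina joint libraries and 9 over the blade libraries. At S5, which was used to choose the tags, 25 had 10 counts or fewer over the lamina joint libraries and 14 over the blade libraries. In lamina joint S5, 3 tags had 0 counts.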

Other observations

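Falling tags often had neighbouring numbers in the authors' list. Of the 54, 26 had a number next to that of another falling tag. Among the tags with a mean of at least 10 CPM, 65 had a number next to that of a falling tag and 40% of these 65 were falling tags themselves, against 12.6% of the 222 others. What orders the list is not given in the sources used here, and whether neighbours share reads or sequence was not tested.

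Replicates of the falling tags differed by a median of 0.37 to 0.58 on the log2(CPM + 5) scale within a group. Differences of over 2-fold between the libraries of a group were seen for 8 to 18 of the 54 tags, the fewest in blade S1 and blade S3 and the most in lamina joint S5. Of all tested tags, 13.7% (blade S5) to 28.1% (lamina joint S1) differed by this much within a group, where 13 and 11 of the 54 did. In lamina joint S5 25.4% of all tested tags did, where 18 of the 54 did, and in blade S4 15.7%, where 14 did. In blade S5, 12 tags were over 2-fold higher in the second library and 1 in the first. The share of all tested tags in each direction is not given.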
